A study of Mus musculus with 9 samples.

Results

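Expression of 10 genes of the phagocyte lysosome and of phagocyte lipid handling was examined in the front of the eye of newborn mice. The genes were taken by symbol from the table of read counts: the lysosomal proteases Ctsb, Ctsd, Ctsk and Ctss, the lysosomal glycoproteins Cd68 and Gpnmb, the lysozyme gene Lyz2, the lectin gene Lgals3, the receptor gene Trem2 and the apolipoprotein gene Apoe. All 10 were found among the 35275 genes of the table, and all 10 were among the 15825 genes with enough counts to be tested. Bulk RNA-seq covered 6 samples that were heterozygous for Col4a1 G1344D, a missense change in a type IV collagen chain of basement membranes (mutant, Col4a1+/G1344D), and 3 wildtype samples (Col4a1+/+), all at postnatal day 0. Each sample pooled 4 eyes from 2 mice, so errors and p-values describe differences from pool to pool. The tissue held cornea, iris, ciliary body and drainage structures, with the lens removed, and strain and sex were not given in the sources used here. Markers of its main parts were abundant: in mutant and wildtype libraries the summed level was at least 7698 CPM (counts scaled to library size) for corneal stroma markers, 8107 CPM for surface epithelium markers and 14711 CPM for pigment cell markers.

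Macrophages take up dead cells, matrix and lipoproteins and break them down in lysosomes, where cathepsins cut proteins and acid hydrolases cut lipids and sugars. Cholesterol released there leaves the cell through transporters or is carried away on apolipoprotein E, and Trem2 is a surface receptor for lipids and apolipoproteins that signals through the adaptor Tyrobp. In adipose tissue, atherosclerotic arteries and brain, macrophages loaded with lipid are known for high Trem2, Gpnmb, Cd68, Lgals3, Apoe and cathepsin RNA. In the eye, several of these genes are also known outside macrophages: Gpnmb in melanocytes and pigment epithelium, Ctsk in matrix-degrading stromal cells and osteoclasts, Lgals3 in surface epithelium, and Ctsb, Ctsd and Apoe in many cell types.

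The genes fell into 3 sets by the comparison of mutant with wildtype. Lyz2, Trem2, Cd68, Ctss and Lgals3 were higher in mutant anterior segments, by between 1.44-fold and 4.59-fold. Ctsk was 1.28-fold lower, and Ctsb, Ctsd, Gpnmb and Apoe did not pass the test. Thus 5 of 10 genes were called higher, where 9.70% of all tested genes were, and 1 was called lower, where 9.47% were (edgeR quasi-likelihood test, Benjamini-Hochberg adjusted p under 0.05). The same shares are the background for the count of calls in every list below. Mutant and wildtype libraries did not overlap for 5 genes that were higher in the mutant and for 1 that was lower, against 10.8% and 11.2% of all tested genes. The 5 were Lyz2, Trem2, Cd68, Ctss and Ctsd, and the 1 was Ctsk. They are not the same 5 as those called higher: Ctsd was not called, and Lgals3 was called but overlapped. The median log2 fold change was 0.34 over the 10 genes and -0.0019 over all tested genes. The 10 genes were chosen with earlier results of these data known, so these comparisons with all tested genes are not a test of the set. In a bulk sample, more cells of a type and more RNA per cell cannot be told apart, so these levels describe the tissue and not single macrophages. Over all tested genes, 1535 were called higher and 1499 lower, but 303 and 235 without wildtype 1 and 849 and 820 without wildtype 3. With summed pigment cell markers as a covariate these counts were 216 and 107. That sum was lower in every mutant library than in every wildtype library, other than mutant 5 (16404 CPM) against wildtype 2 (16399 CPM). Pigment marker level and genotype can therefore hardly be told apart in that fit. Calls lost below without wildtype 1 or wildtype 3 or with this covariate are to be read beside these falls over all tested genes. Why single genes or lists lost their calls was not tested.

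**Figure D1:**
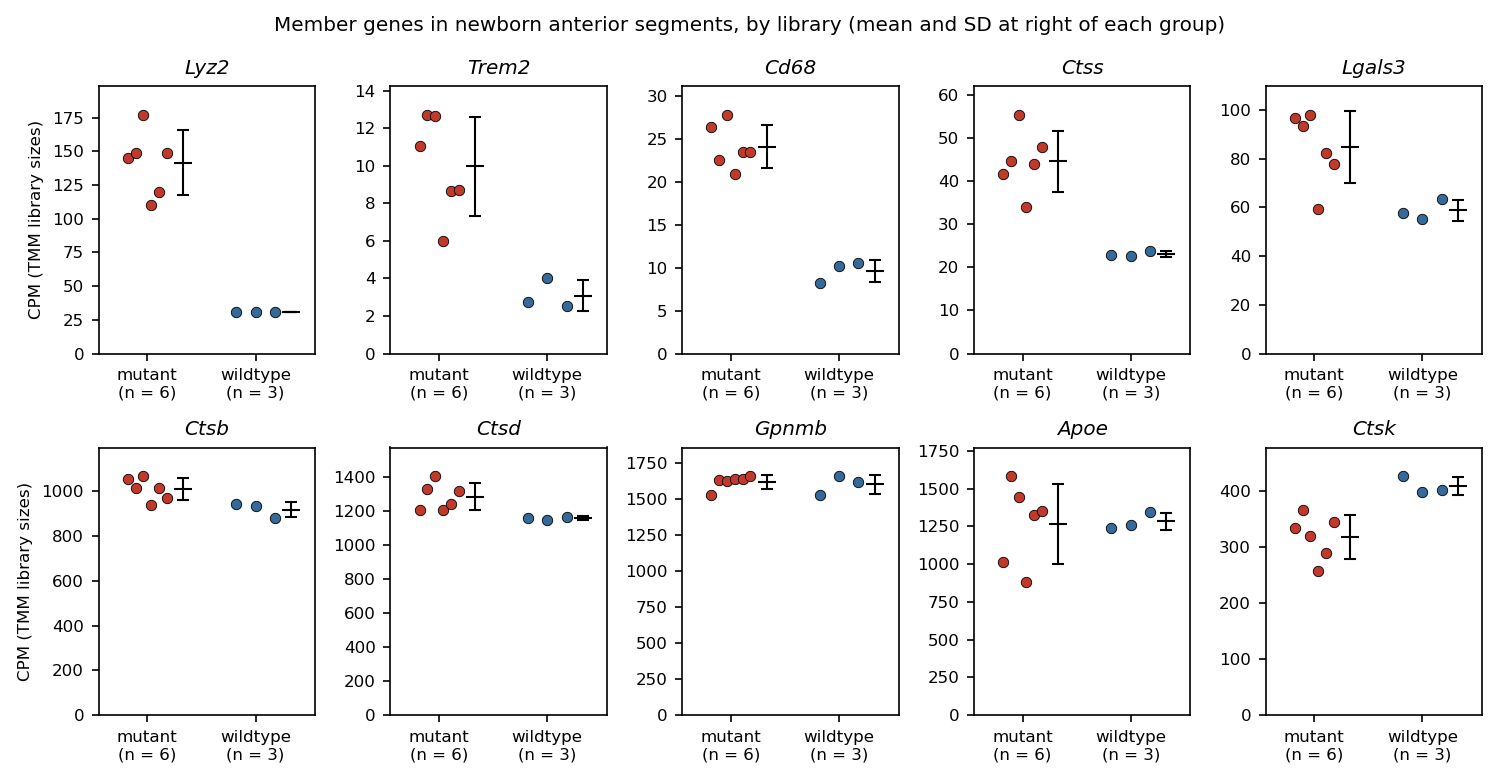
Level of each of the 10 genes in every library, in CPM on a linear axis from 0, with 6 mutant libraries at the left of each panel and 3 wildtype libraries at the right; bars give the mean and SD. The mutant libraries lie above all wildtype libraries for Lyz2, Trem2, Cd68, Ctss and Ctsd and below them for Ctsk, while Lgals3, Ctsb, Gpnmb and Apoe overlap.

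The sequences before the starts of 4 genes are shown: Cd68, Trem2 and Ctss, which rose, and Ctsk, which fell and lies close to Ctss on the same strand. Each run is the 250 bases before the RefSeq start (GRCm38.p6 tables), on the strand of the gene, 5′ to 3′: chr11:69666171-69666420 (minus strand), chr17:48346151-48346400 (plus), chr3:95526536-95526785 (plus) and chr3:95498960-95499209 (plus). Capitals mark matches to any of 5 motifs on either strand. CACGTG holds the core letters of the site of the lysosomal regulators TFEB and TFE3, and TCATGTG is a site of MITF. TGANTCA holds the outer letters of the AP-1 site and allows any base in the middle, so it is wider than that site. GAGGAAGT is a PU.1 site, and the last motif is TATAAA.
Cd68: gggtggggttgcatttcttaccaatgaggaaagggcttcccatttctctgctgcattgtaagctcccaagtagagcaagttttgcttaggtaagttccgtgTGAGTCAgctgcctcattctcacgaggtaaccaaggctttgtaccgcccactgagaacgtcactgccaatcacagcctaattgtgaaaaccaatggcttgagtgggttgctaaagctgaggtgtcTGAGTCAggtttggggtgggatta
Trem2: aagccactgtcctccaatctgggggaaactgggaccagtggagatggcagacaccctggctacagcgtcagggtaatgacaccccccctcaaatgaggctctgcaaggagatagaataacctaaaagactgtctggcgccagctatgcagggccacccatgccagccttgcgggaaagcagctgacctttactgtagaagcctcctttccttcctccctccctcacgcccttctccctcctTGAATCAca
Ctss: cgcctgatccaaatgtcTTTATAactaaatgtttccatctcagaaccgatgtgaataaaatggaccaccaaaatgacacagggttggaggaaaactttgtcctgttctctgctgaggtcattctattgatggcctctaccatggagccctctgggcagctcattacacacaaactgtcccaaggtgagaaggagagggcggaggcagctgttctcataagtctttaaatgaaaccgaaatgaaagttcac
Ctsk: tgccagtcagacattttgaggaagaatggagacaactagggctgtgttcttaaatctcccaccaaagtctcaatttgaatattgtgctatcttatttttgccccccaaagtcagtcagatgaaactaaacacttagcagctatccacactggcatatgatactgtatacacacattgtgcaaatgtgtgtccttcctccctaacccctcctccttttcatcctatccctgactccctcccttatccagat
Cd68 held TGAGTCA at 2 places, starting 149 and 24 bases before the start, and Trem2 held TGAATCA 9 bases before it, while 6.75% of 32851 windows of this length held TGANTCA. Ctss held TATAAA on the opposite strand 233 bases before the start, and Ctsk held none of the 5 motifs. Nor did the windows of Lyz2, Gpnmb and Lgals3. The Ctsd window held CACGTG at 2 places, 245 and 98 bases before the RefSeq start, against 6.02% of all windows. Apoe has 3 windows, 1 of which held TATAAA on both strands in overlapping letters. The windows of Lyz2 and Ctsd lie in part, and those of Lgals3 and 2 of the 3 of Apoe wholly, inside the genes as GENCODE annotates them. Windows were found for 9 of the 10 genes, with Ctsb as the exception. GAGGAAGT occurred in 2.44% of all windows, TCATGTG in 3.25% and TATAAA in 12.4%, and the matches describe letters in these windows, not bound sites.

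Per kilobase of annotated exon, the genes spanned a wide range. In mutant libraries, Apoe had 593 ± 125 RPKM (CPM per kilobase of exon), Ctsd 547 ± 34.0, Gpnmb 249 ± 7.28, Ctsk 211 ± 26.1 and Ctsb 167 ± 8.19 RPKM (SD, n = 6). Lyz2 followed with 108 ± 18.1 RPKM, Lgals3 with 45.5 ± 7.97, Ctss with 32.9 ± 5.24, Cd68 with 19.2 ± 2.02 and Trem2 with 2.01 ± 0.534 RPKM (SD, n = 6). In wildtype libraries Apoe had 600.2 ± 25.8 RPKM, Ctsd 492.9 ± 4.53, Ctsk 271 ± 10.2, Gpnmb 246 ± 10.1 and Ctsb 152 ± 5.69 RPKM (SD, n = 3). Below them stood Lgals3 at 31.7 ± 2.32 RPKM, Lyz2 at 23.4 ± 0.159, Ctss at 17.1 ± 0.503, Cd68 at 7.67 ± 1.01 and Trem2 at 0.624 ± 0.164 RPKM (SD, n = 3). Lyz2 thus stood above Lgals3 in all 6 mutant libraries and below it in all 3 wildtype libraries. Neighbours in the wildtype order did not overlap, whereas in the mutant order Apoe overlapped Ctsd, Gpnmb overlapped Ctsk, Ctsk overlapped Ctsb and Lgals3 overlapped Ctss. Within single mutant libraries this order of neighbours held in all 6, other than for Apoe, which was above Ctsd in 4. Exon length is that of all annotated transcripts together, which lowers the RPKM of genes with long minor transcripts such as Gpnmb (6514 bases), Ctsb (6051 bases) and Trem2 (4946 bases).

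Lyz2, which encodes the lysozyme of macrophages and other myeloid cells, changed most. The gene (ENSMUSG00000069516) is at chromosome 10, 117277331 to 117282321 of GRCm38, minus strand, and all positions are in this build. Its level was 110 CPM in the lowest, 147 CPM in the median and 177 CPM in the highest mutant library, against 30.9, 31.0 and 30.6 CPM in wildtype 1, 2 and 3. The wildtype libraries lay within 1 CPM of each other, and every mutant library lay far above them. The fold was 4.59 (log2 2.20, SE 0.132, edgeR adjusted p = 3.49e-08), and the exact two-sided permutation p over the 84 ways to assign 6 of the 9 libraries to the mutant was 0.0119, the smallest this design can give. The near-identical gene Lyz1 shares sequence with Lyz2 and had 10 counts over the mutant and 13 over the wildtype libraries.

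Trem2, the lipid receptor (ENSMUSG00000023992; chromosome 17, 48346401 to 48354147, plus strand), was the least abundant of the 10 genes. It had 5.99, 9.89 and 12.7 CPM in the lowest, median and highest mutant library, against 2.73, 4.01 and 2.52 CPM in wildtype 1 to 3. The lowest mutant library still lay above the highest wildtype library, and spread was wide in both groups. Trem2 rose 3.23-fold (log2 1.69, SE 0.248, edgeR adjusted p = 0.000897; exact permutation p = 0.0119).

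Cd68, a heavily glycosylated protein of the lysosomal membrane of macrophages, rose 2.5-fold (log2 1.32, SE 0.132, edgeR adjusted p = 3.18e-05; exact permutation p = 0.0119). Its position is chromosome 11, 69664213 to 69666153, minus strand (ENSMUSG00000018774). Its levels were 20.9, 23.5 and 27.8 CPM in the lowest, median and highest mutant library, against 8.19, 10.2 and 10.5 CPM in wildtype 1 to 3. The lowest mutant library lay well above the highest wildtype library, and the groups did not overlap.

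Ctss encodes cathepsin S, a cysteine protease of antigen-presenting cells that works in lysosomes and outside the cell. On chromosome 3 it spans 95526786 to 95556403, plus strand (ENSMUSG00000038642). Mutant libraries had 34.0, 44.4 and 55.5 CPM (lowest, median, highest), against 22.9, 22.7 and 23.9 CPM in wildtype 1 to 3. The wildtype values were close together and the mutant values spread more widely, without overlap. Ctss rose 1.93-fold (log2 0.95, SE 0.127, edgeR adjusted p = 0.000462; exact permutation p = 0.0119).

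Lgals3 encodes galectin-3, a lectin that binds sugars on damaged lysosomes and at the cell surface. The gene (ENSMUSG00000050335) spans 47367751 to 47386160 of chromosome 14, plus strand. The mutant libraries had 59.3, 87.9 and 98.0 CPM (lowest, median, highest), against 57.9, 55.1 and 63.6 CPM in wildtype 1 to 3. Mutant 4, the lowest mutant library, fell among the wildtype libraries, and the other 5 lay above them. Lgals3 rose 1.44-fold (log2 0.52, SE 0.132, edgeR adjusted p = 0.0129; exact permutation p = 0.0357). The call was lost without wildtype 1 (log2 fold change 0.51, edgeR adjusted p = 0.0821) and with summed pigment cell markers as a covariate (log2 fold change 0.63, edgeR adjusted p = 0.0533). Leaving out mutant 4 gave a log2 fold change of 0.61 (edgeR adjusted p = 0.000655).

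Ctsk, the gene of cathepsin K, a collagen-degrading protease, was the member that fell. On chromosome 3 it spans 95499256 to 95509362, plus strand (ENSMUSG00000028111). Its levels were 257, 327 and 366 CPM in the lowest, median and highest mutant library, against 427, 399 and 402 CPM in wildtype 1 to 3. No mutant library reached a wildtype library. Ctsk was 1.28-fold lower (log2 -0.36, SE 0.0969, edgeR adjusted p = 0.0182; exact permutation p = 0.0238). The call did not hold without wildtype 1 (log2 fold change -0.33, edgeR adjusted p = 0.108) or wildtype 3 (-0.37, adjusted p = 0.0543), nor once a trend of expression on exon length was removed from each library, which left a log2 fold change of -0.11 (edgeR adjusted p = 0.392). It was also lost with the pigment cell covariate (log2 fold change -0.24, edgeR adjusted p = 0.258) and with the split by ribosomal RNA reads as a covariate (-0.32, adjusted p = 0.0772). Corneal stroma markers were lower beside it: their summed level was between 7698 and 9872 CPM in mutant libraries and between 10362 and 12909 CPM in wildtype libraries, and 5 of 11 fell (edgeR), namely Kera, Lum, Dcn, Tkt and Aldh3a1. Without wildtype 1 this count was 1, and without wildtype 2 it was 3. Osteoclast markers, another cell type known for Ctsk, summed to between 33.3 and 38.6 CPM in mutant and between 23.3 and 32.9 CPM in wildtype libraries. The part of either cell type in the level of Ctsk was not tested.

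Ctsb and Ctsd, the genes of cathepsin B and cathepsin D, proteases of most cells, did not pass the test. Ctsb (chromosome 14, 63122462 to 63145923, plus strand, ENSMUSG00000021939) had 937, 1015 and 1068 CPM in the lowest, median and highest mutant library, against 942, 934 and 879 CPM in wildtype 1 to 3. Ctsd (chromosome 7, 142375911 to 142388038, minus strand, ENSMUSG00000007891) had 1207, 1280 and 1407 CPM, against 1163, 1147 and 1167 CPM in wildtype 1 to 3. For Ctsb 5 of 6 mutant libraries lay above all wildtype libraries, and for Ctsd all 6 did. The log2 fold changes were 0.14 (SE 0.0814, edgeR adjusted p = 0.252) for Ctsb and 0.15 (SE 0.0853, edgeR adjusted p = 0.234) for Ctsd. The exact permutation p on library sizes scaled by TMM was 0.0476 for Ctsb and 0.0238 for Ctsd, and on total counts it was 0.119 and 0.107. Both genes were called by limma-voom with quality weights (adjusted p = 0.0224 and 0.0382), and Ctsd was called with the exon length trend removed (log2 fold change 0.31, edgeR adjusted p = 0.0158). Ctsb shares 774 exon bases with Fdft1 on the opposite strand and Ctsd 808 exon bases with the gene model Gm49369, so reads there are uncertain.

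Gpnmb, a lysosomal and melanosomal glycoprotein gene, did not pass the test. It is at chromosome 6, 49036546 to 49070929, plus strand (ENSMUSG00000029816). It had 1528, 1635 and 1660.1 CPM in the lowest, median and highest mutant library, against 1532, 1661 and 1618 CPM in wildtype 1 to 3. The groups overlapped, with 1621 ± 47.4 CPM in mutant and 1604 ± 65.9 CPM in wildtype libraries (SD, n = 6 and 3). The log2 fold change was 0.02 (SE 0.0829, edgeR adjusted p = 0.916; exact permutation p = 0.762), and its sign depended on the scaling: it was -0.01 with upper quartile factors. Pigment cell markers beside it summed to between 14711 and 16404 CPM in mutant and between 16399 and 17227 CPM in wildtype libraries, and 0 of 12 were called (edgeR; 1 had an unadjusted p under 0.05 and DESeq2 called 0, while limma-voom called 1 higher and 2 lower). How much of the Gpnmb RNA came from pigment cells was not tested.

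Apoe, the main apolipoprotein for the export of cholesterol from macrophages and glia, likewise did not pass. It is at chromosome 7, 19696109 to 19699188, minus strand (ENSMUSG00000002985). Its mutant levels of 881, 1338 and 1584 CPM (lowest, median, highest) spread on both sides of the wildtype levels of 1241, 1263 and 1346 CPM in wildtype 1 to 3. Of the mutant libraries 3 lay above and 2 below all wildtype libraries. The log2 fold change was -0.02 (SE 0.148, edgeR adjusted p = 0.947; exact permutation p = 0.893), and its sign changed with the setting, to 0.16 with the exon length trend removed. The 10 exact permutation tests given here are not adjusted for their number.

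**Figure D2:**
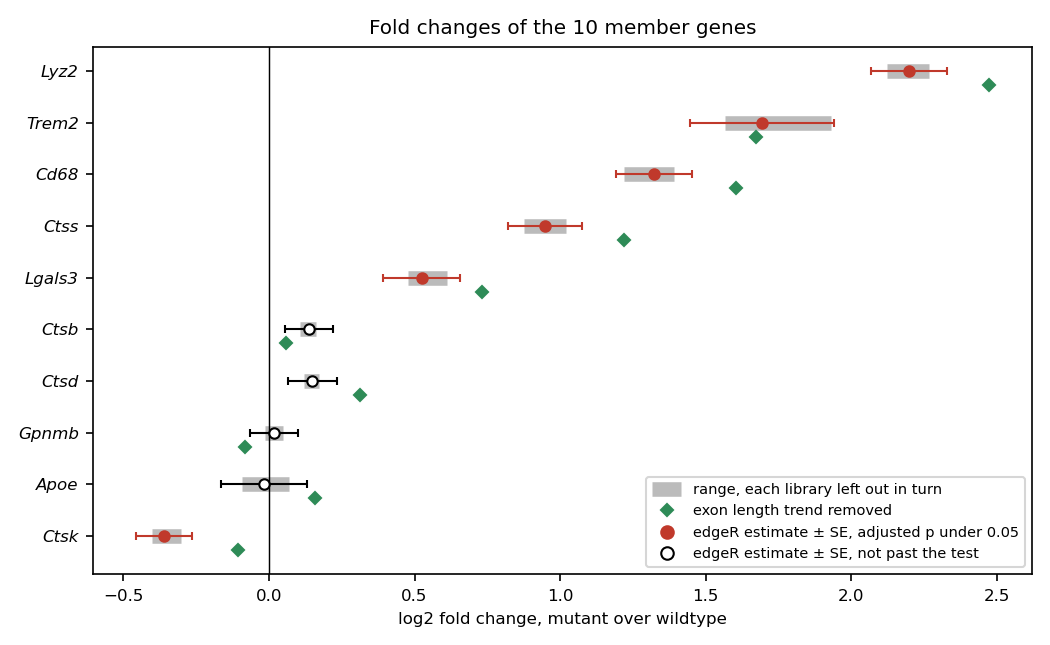
Log2 fold change of mutant over wildtype for each gene (edgeR estimate with its SE), with the range over fits that leave out each of the 9 libraries as a grey bar and the estimate with the exon length trend removed as a diamond. Lyz2, at 2.20, stands highest and Ctsk, at -0.36, lowest, and the diamond of Ctsk lies at -0.11.

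Single mutant libraries were low or high for many of the genes at once. Mutant 4 was the lowest mutant library for 9 of the 10 genes, and mutant 3 was the highest for 6 of them. Macrophage identity markers, a list that shares no gene with the 10, also had their lowest mutant sum in mutant 4, at 428 CPM, and their highest in mutant 3, at 523 CPM. This was not particular to macrophage markers. Mutant 4 was also the lowest mutant library for pigment cell (14711 CPM), surface epithelium (8107 CPM) and neutrophil markers (13.1 CPM). Mutant 3 was also the highest for surface epithelium markers (9500 CPM). For corneal stroma, monocyte, dendritic cell, osteoclast and erythroid markers the lowest mutant library was another one. The 9 libraries also differed in reads on Gm42418, which is known to overlap ribosomal RNA: these took over 1% of counts in 5 mutant and 1 wildtype libraries and less in 1 mutant and 2 wildtype libraries. On the side with more such reads the ratio of mutant to wildtype means was 4.54 for Lyz2, 3.45 for Trem2, 2.98 for Cd68, 1.95 for Ctss and 1.43 for Lgals3. On the other side these ratios were 4.83, 3.90, 2.17, 1.92 and 1.57 in the same order, and for Ctsk they were 0.725 and 0.915. Each side holds a single library of 1 genotype, so these ratios have no test.

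The summed level of macrophage identity markers was between 428 and 523 CPM in mutant and between 360 and 381 CPM in wildtype libraries, a ratio of means of 1.26. Of 18 tested markers, 5 rose (edgeR), with a median log2 fold change of 0.42: Itgam, an integrin chain, 2.30-fold, Adgre1, the F4/80 antigen, 1.79-fold, Laptm5, a lysosomal membrane protein of blood cells, 1.548-fold, Mertk, a receptor for dead cells, 1.45-fold, and the myeloid transcription factor gene Spi1, 1.34-fold. Spi1 (edgeR adjusted p = 0.0485) lost its call without any 1 of 8 of the 9 libraries, mutant 4 being the exception. Without wildtype 1 the count was 3 and Mertk was not called (edgeR adjusted p = 0.0732), and with the pigment cell covariate it was 2. It was 9 without mutant 4, 8 by DESeq2, 11 by limma-voom and 10 with the exon length trend removed. The 5 calls are to be read against 9.70% of all tested genes. Of the 18 markers, 17 had a positive log2 fold change, with Cx3cr1 as the exception, and 11 had an unadjusted p under 0.05 (edgeR), all higher. Among those with the smallest changes, picked by their values, Csf1r, the receptor macrophages need to survive, did not pass. It had 48.2 ± 5.34 CPM in mutant and 43.6 ± 6.28 CPM in wildtype libraries (SD, n = 6 and 3). Nor did the chemokine receptor gene Cx3cr1, with 14.5 ± 2.78 and 16.2 ± 2.23 CPM (SD, n = 6 and 3). The complement gene C1qa had 56.9 ± 10.8 CPM in mutant and 52.3 ± 5.17 CPM in wildtype libraries and passed the test with the exon length trend removed (log2 fold change 0.43, edgeR adjusted p = 0.0112).

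Divided by the summed macrophage identity markers of the same library, Lyz2 stood between 0.257 and 0.338 in mutant and between 0.0803 and 0.0859 in wildtype libraries. The same ratio was between 0.0140 and 0.0265 in mutant and between 0.00660 and 0.0106 in wildtype libraries for Trem2. For Cd68 it was between 0.0471 and 0.0577 in mutant and between 0.0228 and 0.0275 in wildtype libraries. For Ctss it was between 0.0793 and 0.106 in mutant and between 0.0599 and 0.0636 in wildtype libraries. These 4 ratios did not overlap between the groups and were higher in the mutant, while that of Lgals3, between 0.138 and 0.212 in mutant and between 0.146 and 0.167 in wildtype libraries, did. For 4 other genes the ratio did not overlap and was lower in the mutant. It was between 3.11 and 3.82 in mutant and between 4.24 and 4.39 in wildtype libraries for Gpnmb, and between 2.64 and 2.82 in mutant and between 3.03 and 3.23 in wildtype libraries for Ctsd. For Ctsk it was between 0.59998 and 0.765 in mutant and between 1.05 and 1.19 in wildtype libraries, and for Apoe between 2.06 and 3.31 in mutant and between 3.34 and 3.53 in wildtype libraries. The ratio of Ctsb overlapped, between 1.96 and 2.31 in mutant and between 2.30 and 2.62 in wildtype libraries. The marker sum in the divisor was itself higher in every mutant library, so a gene of unchanged level takes a lower ratio there. The lower ratios of Gpnmb, Ctsd and Apoe, which were not called, therefore do not show a fall in these genes. How many of all tested genes separate by this ratio was not counted. The 4 genes with higher and the 4 with lower ratios therefore have no background to be read against. These ratios describe the named genes only and do not set them apart from other genes, in either direction. With the log2 sum of these markers as a covariate in the fit, Lyz2 was called (log2 fold change 1.504, edgeR adjusted p = 0.00109), and Cd68 (0.95, adjusted p = 0.251), Trem2 (0.79, adjusted p = 0.421), Ctss (0.31, adjusted p = 0.473), Lgals3 (0.03, adjusted p = 0.969) and Ctsk (-0.69, adjusted p = 0.252) were not. That covariate itself does not overlap between the groups, so marker level and genotype cannot be told apart in this fit, in which 6 genes in all were called higher.

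Markers of other blood cells that could carry Lyz2 or Ctss were low. Neutrophil markers summed to between 13.1 and 25.3 CPM in mutant and between 13.4 and 26.6 CPM in wildtype libraries, with Ly6g, Mpo and Elane too low to test. Monocyte markers summed to between 22.7 and 29.4 CPM in mutant and between 18.7 and 24.6 CPM in wildtype libraries. Most of that sum was Plac8, with a mean of 17.1 CPM in mutant and 15.4 CPM in wildtype libraries (1.11-fold, edgeR adjusted p = 0.548). Dendritic cell markers summed to between 14.1 and 19.95 CPM in mutant and between 12.3 and 19.2 CPM in wildtype libraries. Of 9 neutrophil, 7 monocyte and 6 dendritic cell markers tested, 0 were called (edgeR). At an unadjusted p under 0.05 there were 1 neutrophil and 3 monocyte markers, all higher, and 0 dendritic cell markers. The monocyte markers were Hp (1.98-fold, edgeR adjusted p = 0.0621), Ly6c2 (1.85-fold, adjusted p = 0.141) and F10 (4.81-fold, adjusted p = 0.0745). F10 had 0 to 0.180 CPM in wildtype and 0.178 to 0.762 CPM in mutant libraries. It was tested only through its mutant libraries, so at these wildtype levels it could only come out higher. DESeq2 called 1 monocyte marker and 0 of the others, and limma-voom 1 dendritic cell marker and 0 of the others. Without wildtype 1 edgeR called 1 dendritic cell marker, without wildtype 3 it called 1 monocyte and 1 neutrophil marker, and without mutant 2 it called 1 monocyte marker. Erythroid markers were far higher, between 1801 and 8795 CPM in mutant and between 537 and 954 CPM in wildtype libraries, with 5 of 12 higher, among them Slc4a1, the anion exchanger of red cells, and the globin genes Hba-x, Hba-a2 and Hba-a1, and 1 lower. Without wildtype 1, 2 erythroid markers were called higher, and without wildtype 2 or wildtype 3, 3 were. Surface epithelium markers, another known source of Lgals3, summed to between 8107 and 9500 CPM in mutant and between 8469 and 9463 CPM in wildtype libraries, and 1 of 10, Trp63, rose, a call that did not hold without wildtype 1 (edgeR adjusted p = 0.225), wildtype 3, mutant 3 or mutant 5, or on total counts. The part of these cell types in the results was not tested.

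**Figure D3:**
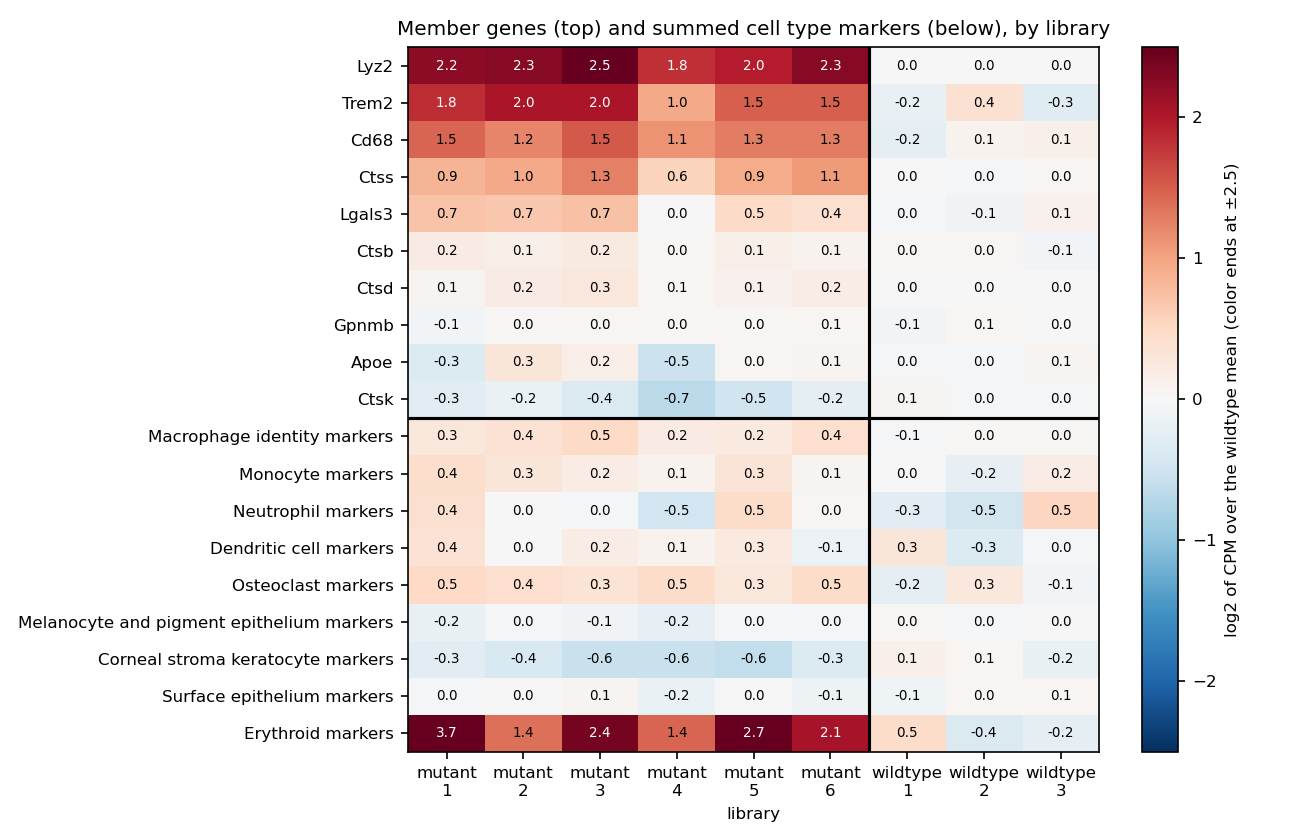
Log2 ratio of each library's CPM to the wildtype mean, for the 10 genes above the line and for summed cell type markers below it, with 6 mutant libraries at the left and 3 wildtype libraries at the right. Lyz2, Trem2, Cd68 and Ctss are raised in every mutant column, the macrophage marker sum by less, and the erythroid sum is raised in all mutant columns with mutant 1 highest.

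Of 10 tested genes for other cathepsins and legumain, 1 rose (edgeR), a share close to the 9.70% of all tested genes. It was Lgmn, an asparagine endopeptidase that processes cathepsins, with 195 ± 22.5 CPM in mutant and 142 ± 6.68 CPM in wildtype libraries, 1.37-fold higher (edgeR adjusted p = 0.00515). The cathepsin L gene Ctsl had 1069.8 CPM in mutant and 1250.5 CPM in wildtype libraries (edgeR adjusted p = 0.122), Ctsh 181 and 213 CPM (edgeR adjusted p = 0.0737) and Ctso 28.9 and 33.6 CPM (edgeR adjusted p = 0.118). Of 10 cathepsin inhibitors, 1 rose and 3 fell, against 9.70% and 9.47% of all tested genes, and the median of the log2 fold changes was -0.32. Cst3, the secreted inhibitor cystatin C, had 274 ± 27.1 CPM in mutant and 338 ± 32.5 CPM in wildtype libraries, 1.23-fold lower (edgeR adjusted p = 0.0324). Stfa1 and Serpinb1a were 1.67-fold and 1.61-fold lower, and Serpina3g was 1.53-fold higher. Stfa1 has near-identical copies, as do Hba-a1 and Hba-a2, so their values are uncertain. Without wildtype 1 only Stfa1 of these 4 inhibitors was called, and Cst3 was also not called without wildtype 3 or mutant 3 or 6. Serpina3g was not called without wildtype 3. With the exon length trend removed, 1 inhibitor was called higher and those that fell were not called.

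Of 32 hydrolases and their cofactors, 5 rose and 1 fell, against 9.70% and 9.47% of all tested genes, and the median of the log2 fold changes was 0.12. Psap, the precursor of the saposins that present lipids to hydrolases, had 1330 ± 81.2 CPM in mutant and 1072 ± 64.8 CPM in wildtype libraries, 1.24-fold higher (edgeR adjusted p = 0.0228). Ids, a sulfatase of glycosaminoglycans, was 1.30-fold and the peptidase gene Tpp1 1.17-fold higher, while the acid sphingomyelinase gene Smpd1 was 1.21-fold lower. These 4 calls and all others of the list were lost without wildtype 1, where calls over all tested genes fell to 303 higher and 235 lower. Psap was also lost without wildtype 3 or mutant 3, and Tpp1 without wildtype 3 or mutant 6. Calls higher numbered 1 without wildtype 3 or on total counts, 2 without mutant 3 or with upper quartile factors, and 3 without mutant 2 or 6, against 8 by DESeq2 and 8 by limma-voom. Of 19 lysosomal membrane proteins and transporters, 5 rose and 3 fell, against the same shares of all tested genes. Besides Laptm5, Sidt2 was 1.38-fold and the cholesterol exporter gene Npc1 1.43-fold higher, and the tetraspanin gene Cd63 was 1.52-fold lower. Without wildtype 1, 2 of them were called higher, and Npc1 (edgeR adjusted p = 0.0924) and Cd63 (0.0536) were not called. Without wildtype 3, 3 were called higher and 1 lower, and without mutant 3, 1 was called lower. Of 18 subunits of the vacuolar proton pump, which acidifies lysosomes, 2 rose, a share close to the 9.70% of all tested genes, and 5 fell, where 9.47% did. Atp6v0e was 1.53-fold and Atp6v0b 1.41-fold lower. Tcirg1, a subunit known from osteoclasts, was 1.41-fold higher. Atp6v0d2, a subunit of macrophages and osteoclasts, had 114 counts over the mutant and 5 over the wildtype libraries, a ratio of 9.90 with an exact 95% interval of 4.12 to 31.1 that covers counting error only. Its wildtype levels, 0 to 0.187 CPM, would not have passed the count filter. It was tested only through the mutant libraries, at 0.356 to 0.970 CPM, so at these wildtype levels it could only be called higher. Without wildtype 1, 1 pump gene was called lower, and Tcirg1, Atp6v0d2 and Atp6v0b were not called, and without wildtype 3 neither Tcirg1 nor Atp6v0d2 was and 2 pump genes were called lower. Of 9 genes for the transcription factors of lysosome genes and their adaptors, 2 rose: Fnip2, a regulator of these factors, 1.74-fold, and the GTPase gene Rragd, 1.25-fold, which was not called without wildtype 1 or 2 or mutant 5 or 6. Among the factors themselves, Mitf had 128 CPM in mutant and 112 CPM in wildtype libraries (edgeR adjusted p = 0.0754) and Tfe3 44.96 and 37.8 CPM (edgeR adjusted p = 0.0982). With the exon length trend removed Npc1 (edgeR adjusted p = 0.0688), Tpp1 (0.0538) and Rragd (0.0602) were not called, and the median log2 fold change of the membrane list was 0.04, against -0.07 without this step.

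Of 14 tested apolipoprotein, lipoprotein receptor and sterol exporter genes, 5 rose, against 9.70% of all tested genes, with a median log2 fold change of 0.18. Abca1 and Abcg1, the exporters that load cholesterol onto apolipoproteins, had 126 ± 18.1 and 33.2 ± 3.51 CPM in mutant libraries, against 61.4 ± 8.46 and 15.4 ± 2.14 CPM in wildtype libraries. Both were over 2-fold higher (2.06-fold and 2.15-fold, edgeR adjusted p = 0.000122 and 8.07e-05). Lrp1, a receptor for apolipoprotein E and many other ligands, was 1.70-fold and Lrp8 1.52-fold higher. Without wildtype 1, 3 of this list were called higher and Lrp8 was not called (edgeR adjusted p = 0.0876), nor was it without wildtype 3 (0.0594) or with the exon length trend removed (0.0735). Of 18 genes known from lipid-associated macrophages, other than the 10, 6 rose and 1 fell, against 9.70% and 9.47% of all tested genes. Cd36, a receptor for oxidised lipoproteins and fatty acids, had 34.3 ± 2.17 CPM in mutant and 5.73 ± 1.04 CPM in wildtype libraries, 5.98-fold higher (edgeR adjusted p = 9.2e-09). Clec7a, the beta-glucan receptor, was 4.16-fold and Spp1, the osteopontin gene, 1.64-fold higher. The member that fell was Cd63. Without wildtype 1, 4 of this list were called higher. Of 7 tested partners of Trem2 signalling, 2 rose: the kinase gene Lyn, 1.46-fold, and the phosphatase gene Inpp5d, 1.72-fold, and Inpp5d was not called without wildtype 1 (edgeR adjusted p = 0.0527). The count of this list was 4 without mutant 4, by DESeq2 and by limma-voom, and 0 with the pigment cell covariate. Tyrobp, the adaptor of Trem2, had 12.9 ± 2.64 CPM in mutant and 9.30 ± 0.945 CPM in wildtype libraries (edgeR adjusted p = 0.0752), and Syk had 11.1 and 8.05 CPM (edgeR adjusted p = 0.0607). With the exon length trend removed Tyrobp was called (log2 fold change 0.83, edgeR adjusted p = 0.00228). Of 7 tested osteoclast markers 2 rose, Atp6v0d2 and Mmp9, against 9.70% of all tested genes, and without wildtype 1 or wildtype 3 neither was called. Atp6v0d2 was among those tested only through its mutant libraries, as given above. Mmp9 was also not called without wildtype 2 or mutant 1, 5 or 6.

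**Figure D4:**
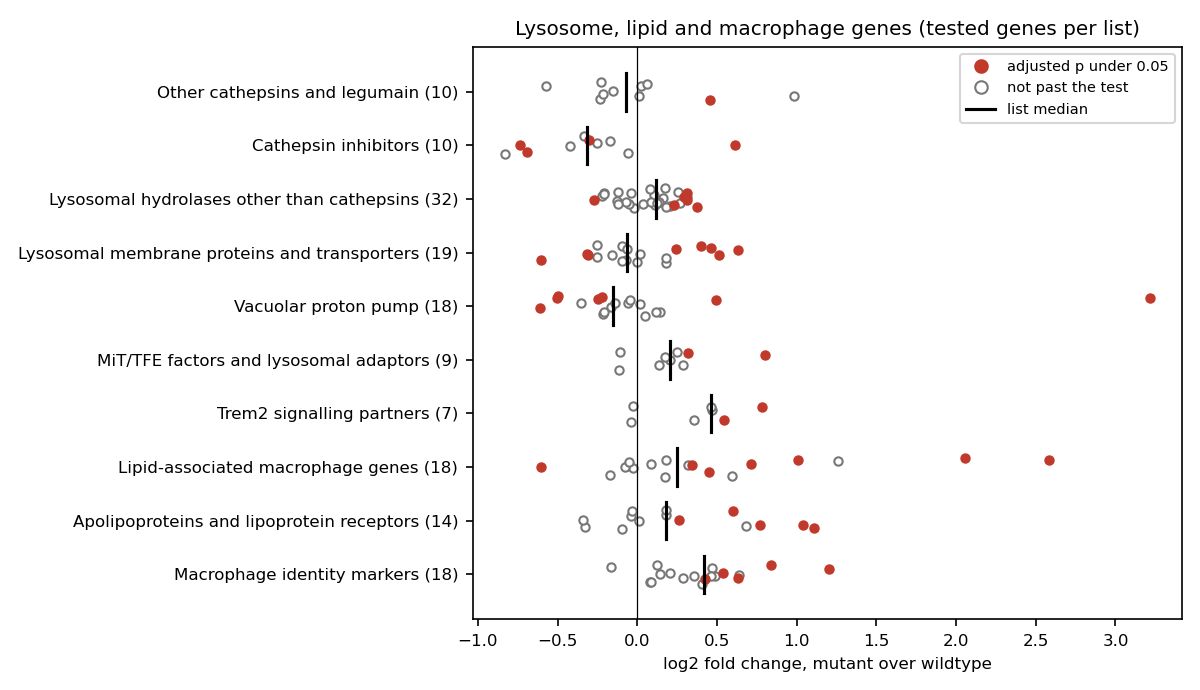
Log2 fold change of mutant over wildtype for every tested gene of 10 lists, with genes past the test filled, others open, and a line at each list's median. The medians run from -0.32 for cathepsin inhibitors to 0.46 for Trem2 signalling partners, and the single points far to the right are Cd36 and Clec7a among lipid-associated macrophage genes and Atp6v0d2 in the proton pump. Atp6v0d2 passed the count filter only through its mutant libraries.

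The genes with the level pattern nearest to each called member were found by the root mean square difference of centred log2 CPM over the 9 libraries, among tested genes with a mean of at least 5 CPM. For Lyz2 these were Mpeg1, which encodes a pore-forming protein of macrophages (difference 0.123), the C-type lectin gene Clec4n (0.271) and the cartilage matrix gene Cilp (0.285). Mpeg1 had 64.3 CPM in mutant and 15.2 CPM in wildtype libraries, 4.22-fold higher. For Cd68 they were the iron exporter gene Slc40a1 (0.159), the lysosomal transporter gene Slc15a3 (0.169) and Abcg1 (0.198). For Trem2 they were Cd68 (0.335), the SLAM family receptor gene Cd84 (0.336) and Lyz2 (0.346). For Ctss they were Slc37a2 (0.108), the collagen gene Col10a1 (0.128) and Lgr6 (0.159), and for Lgals3 they were Fhl2 (0.0957), the properdin gene Cfp (0.108) and Sema4d (0.114). For Ctsk they were Fndc10 (0.0407), Rab5if (0.0634) and Cpq (0.0667). Genes with a similar fold change score as near by this measure, whatever tissue they come from. With a minimum mean of 20 CPM, 11 of the 18 genes stayed on these lists.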

How the data were processed

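Bulk RNA-seq of 9 anterior segment samples was used. The authors deposited 1 table of whole-number counts, not normalized, by Ensembl gene and sample, which sum to between 25995340 and 35306935 per library. The build GRCm38 (mm10) and the tools HTSeq 0.6.1, STAR 2.6.1 and DESeq2 1.6.3 come from the submitters' processing notes, which are used here without roles. Not given in the sources used here are the annotation and strand setting, and reads of genes on opposite strands of 1 place may be mixed. Groups follow the genotype in the sample titles. Each library counted as 1 replicate, since pairs within a group differed beyond counting noise (chi-square per degree of freedom at least 15.56). No label says that equal replicate numbers pair libraries, and they were not taken to do so (a check is given with the alternatives).

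Symbols, positions and total exon lengths came from GENCODE M21 (GRCm38), which held 34490 of the 35275 gene identifiers of the count table. Promoter sequences came from RefSeq tables of GRCm38.p6. CPM are the deposited counts over TMM-scaled library sizes. The test was edgeR 4.0.16 (R 4.3.3), using filterByExpr and a robust quasi-likelihood model of genotype alone, with p-values adjusted by Benjamini-Hochberg over 15825 genes and called at 0.05. An exact two-sided permutation of mean log2 CPM (prior count 2) over all 84 assignments of libraries to genotype was run for each member. Alternatives were other scaling, DESeq2 1.42.0, limma 3.58.1 (voom), filters, thresholds, covariates, removal of a smooth trend on exon length (lowess, span 0.3), a replicate block and each library left out. The fit was tested on simulated data.

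The 10 members and the 18 other lists were chosen with earlier results of these data known, and some genes are on 2 lists. The genes named are the members, for each list up to 4 tested genes with the lowest p, and for each called member the 3 nearest genes by profile, leaving out clone names, pseudogenes and sex-linked marker genes. Any other gene named was chosen after its value was seen.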

Additional observations from a re-analysis of the deposited data

Results flagged for a closer look

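In 19 groups of 6 mutant values tested, 2 had a single library far from the rest, and chance flags about 1 group in 20. Gpnmb stood at 1528 CPM in mutant 1, below the next lowest mutant library at 1626 CPM, a gap of 0.740 of the range. Its wildtype libraries ran from 1532 to 1661 CPM. Summed erythroid markers stood at 8795 CPM in mutant 1, above the next highest mutant library at 4418 CPM, a gap of 0.626 of the range. Leaving out mutant 1 kept all 5 members called higher and Ctsk called lower.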

How the results depend on the processing

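Lyz2 was called higher under all 24 alternatives (log2 fold change 1.504 to 2.47), and Cd68, Ctss and Trem2 under all but the macrophage covariate. Between 4 and 7 members were called higher under every alternative but that one, which gave 1. Leaving out each library gave 4 to 5 members higher and 0 to 1 lower. Members called lower numbered 0 (edgeR) with adjusted p under 0.01, against a fold of 1.2, with the replicate block or the same 6 libraries without it, with the macrophage or pigment cell covariate, with exon length removed and with the ribosomal RNA split; DESeq2 and limma-voom each called 1, Ctsk, whose unadjusted p was under 0.05 in the reported fit. Over all genes, calls higher and lower were 2359 and 2335 by limma-voom, 520 and 512 at 0.01, 214 and 155 against a fold of 1.2, 6 and 0 with the macrophage covariate, 216 and 107 with the pigment cell covariate and 938 and 939 with the split. With exon length removed, 1019 were higher. They ranged from 303 to 1688 and from 235 to 1577 with each library left out, the lowest without wildtype 1, and were 849 and 820 without wildtype 3.

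The replicate block was fitted on replicates 1 to 3 and gave 787 and 660 calls, against 857 and 733 on the same 6 libraries with no block (an alternative added after seeing the data, as was the split). Deviations of same-numbered libraries correlated at 0.0947, 0.0258 and -0.104, and the numbers were not taken to pair them. Correlations of differently numbered libraries are not set beside these, so the check cannot exclude a shared batch.

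Gpnmb and Apoe changed sign. Gpnmb was at -0.0147 with upper quartile factors, -0.0028 on total counts (-0.000557 in the exact test), -0.0031 and -0.0034 with and without the block, -0.0269 with the macrophage covariate and -0.0835 with exon length removed. Apoe was at 0.0286 by limma-voom, 0.051 and 0.0745 with and without the block, 0.319 with the pigment covariate, -0.698 with the macrophage covariate, 0.158 with exon length removed and 0.0989 with the split. With each library left out they ran from -0.015 to 0.0477 and from -0.0921 to 0.0703 (0.0381 without mutant 1, 0.0188 without wildtype 3, the highest without mutant 4). Ctsd was at -0.0919 with the macrophage covariate. In the exact test on total counts the differences of Ctsb and Ctsd were 0.120 and 0.130, past 0.05 no longer (p = 0.119 and 0.107). The cause of these changes was not tested. Trem2 rests on the fewest counts of the 10 genes.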
